A study of Mus musculus with 9 samples.

Results

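Asns, Got1, Got2, Pycr1, Aldh18a1, Prodh, Glul and Glud1 encode 8 enzymes that carry nitrogen and carbon between glutamine, glutamate, aspartate, asparagine and proline. The genes were taken by name from the table of read counts, and these 8 of its 49315 gene identifiers are described here. All 8 passed the filter on low counts, which 18211 genes passed. Poly-A RNA was sequenced from pancreatic stellate cells from C57BL6 mice, the matrix-producing fibroblasts of the pancreas, which had been immortalised by spontaneous outgrowth. The cells expressed Cas9 and a guide RNA from lentivirus, were selected with puromycin and were used as a polyclonal population, so that cells with an intact target may be present in it.

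The 9 libraries formed 3 groups of 3. HIF1a-ko hypoxia cells carried a guide against Hif1a (HIF1a sg2) and were kept at 0.5% oxygen for 48 h. R26 hypoxia cells carried a control guide (R26 sg1) and were kept at 0.5% oxygen for 48 h. R26 normoxia cells carried the same control guide and were kept at 20% oxygen for 48 h. Cells with the Hif1a guide at 20% oxygen were not analysed here. Hif1a encodes HIF-1 alpha, the subunit that is destroyed when oxygen is ample, and R26 names the Rosa26 locus, a usual neutral target. The design compares low with ample oxygen in control cells, and cells with the Hif1a guide with control cells in low oxygen. All libraries of a group carried the same guide. An effect of Hif1a loss therefore cannot be told apart from another effect of that guide or a difference between the cell populations. No label states that the libraries of a group are separate cultures, so p-values measure the spread of these libraries only, and that may be technical.

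Asparagine synthetase (Asns) moves the amide nitrogen of glutamine onto aspartate. Aspartate comes from the aspartate aminotransferases, Got1 in the cytosol and Got2 in mitochondria, which also drive the malate-aspartate shuttle. Proline is made from glutamate by pyrroline-5-carboxylate synthase (Aldh18a1) and the reductase Pycr1, and is broken down from its first step by proline dehydrogenase (Prodh). Glutamine synthetase (Glul) makes glutamine from glutamate, and glutamate dehydrogenase (Glud1) joins glutamate to the tricarboxylic acid cycle. In fibroblasts these steps matter for matrix, since collagen is rich in proline. Several of the genes are textbook targets of ATF4, the transcription factor of the amino acid response, which binds sites with the core TGATGNAAN as a dimer with a C/EBP protein.

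Each library held 43837809 to 107840223 counts, and 1 in each group had more than 1.5 times the median total (HIF1a-ko hypoxia 1, R26 hypoxia 3 and R26 normoxia 3, called deeper here). Hif1a (ENSMUSG00000021109) had 123.3, 116.9 and 125.0 CPM (counts scaled to a common library size with TMM factors) in HIF1a-ko hypoxia, 177.8, 168.7 and 207.1 CPM in R26 hypoxia and 194.0, 192.4 and 224.8 CPM in R26 normoxia. Its transcript was thus lower in the 3 libraries with the Hif1a guide than in the other 6, with a log2 fold change of -0.60 ± 0.09 (SE) in HIF1a-ko hypoxia over R26 hypoxia (adjusted p = 0.000358). Summed CPM of 13 fibroblast and stellate markers was 12955 to 13486 in HIF1a-ko hypoxia, 18947 to 20569 in R26 hypoxia and 17002 to 18713 in R26 normoxia, and the part of this difference in the results was not tested. Of the defining stellate markers, Lrat had at most 0.022 CPM, Gfap at most 0.719 CPM and Des at most 3.73 CPM in any library, while Acta2, Col1a1 and Pdgfrb had at least 361.1 CPM. Epithelial, leukocyte, endothelial and adipocyte markers summed to at most 109.8 CPM in any library, acinar and islet markers to at most 15.1 CPM, and the insulin genes Ins1 and Ins2 had no count in any. The acinar and islet sum was 4.41 to 7.10 CPM in HIF1a-ko hypoxia, 10.7 to 13.1 CPM in R26 hypoxia and 10.7 to 15.1 CPM in R26 normoxia, so that the HIF1a-ko hypoxia libraries lay below the other 6. In HIF1a-ko hypoxia over R26 hypoxia 2 of 4 tested markers of that list fell (Cela1 and Cpb1). So did 2 of 6 epithelial markers (Krt19 and Muc1), and no marker of either list rose. Of 5 endothelial markers 2 rose and 1 fell, and of 12 tested fibroblast and stellate markers 1 rose and 4 fell. No leukocyte or adipocyte marker passed, and of all genes tested 22% rose and 23.8% fell. In R26 hypoxia over R26 normoxia Krt19 and Muc1 rose, 1 endothelial marker fell, and 3 fibroblast and stellate markers rose and 2 fell. There 12.8% of all genes rose and 12.4% fell. The named markers were chosen after their values were seen, and the part of these markers in the results was not tested. The epithelial, leukocyte, endothelial and adipocyte sums were lower in the 3 deeper libraries than in the 6 shallower ones, with adipocyte markers at 0.246 to 0.521 CPM in the deeper libraries and 53.6 to 109.8 CPM in the shallower ones.

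The promoters of Asns, Got1 and Pycr1 are shown because these are the members whose 250 bases upstream of the RefSeq start hold the amino acid response core. All 8 members were matched by symbol to RefSeq promoters of build GRCm38.p6, and both strands were searched for TGATGNAAN. The core stood in 3 of the 8 members and in 3.43% of 32841 promoters of this length. The windows are chr6:7693210-7693459 for Asns, chr19:43524606-43524855 for Got1 and chr11:120643749-120643998 for Pycr1, all of genes on the minus strand, written 5′ to 3′ along the gene with the core in capitals.
Asns: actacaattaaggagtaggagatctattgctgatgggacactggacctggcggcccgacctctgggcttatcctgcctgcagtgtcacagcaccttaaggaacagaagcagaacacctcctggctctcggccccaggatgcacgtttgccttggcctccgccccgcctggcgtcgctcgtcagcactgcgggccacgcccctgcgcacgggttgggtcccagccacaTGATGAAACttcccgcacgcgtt
Got1: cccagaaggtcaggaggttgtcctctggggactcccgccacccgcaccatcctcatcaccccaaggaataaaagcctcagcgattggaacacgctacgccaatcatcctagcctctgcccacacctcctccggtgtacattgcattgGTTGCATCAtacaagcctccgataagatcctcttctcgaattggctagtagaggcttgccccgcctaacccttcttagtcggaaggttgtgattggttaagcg
Pycr1: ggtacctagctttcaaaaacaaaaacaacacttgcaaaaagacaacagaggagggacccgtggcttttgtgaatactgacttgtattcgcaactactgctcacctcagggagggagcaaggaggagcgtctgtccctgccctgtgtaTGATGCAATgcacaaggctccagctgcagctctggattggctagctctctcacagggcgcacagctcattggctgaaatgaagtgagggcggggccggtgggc
In Asns the core was TGATGAAAC at position -23 from the RefSeq start, which lies within the GENCODE M21 span of the gene. In Pycr1 it was TGATGCAAT at position -103, and in Got1 it was TGATGCAAC at position -103 on the opposite strand, so that the line above shows its reverse complement. The core of HIF binding sites, ACGTG or GCGTG on either strand, stood in 6 of the 8 members and in 38.6% of all promoters. The promoters of Pycr1 and Glul held neither form, and the ACGTG of Aldh18a1 lay within a CACGTG, a motif of 6.02% of promoters. A match is a description of these letters and does not show binding.

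**Figure D1:**
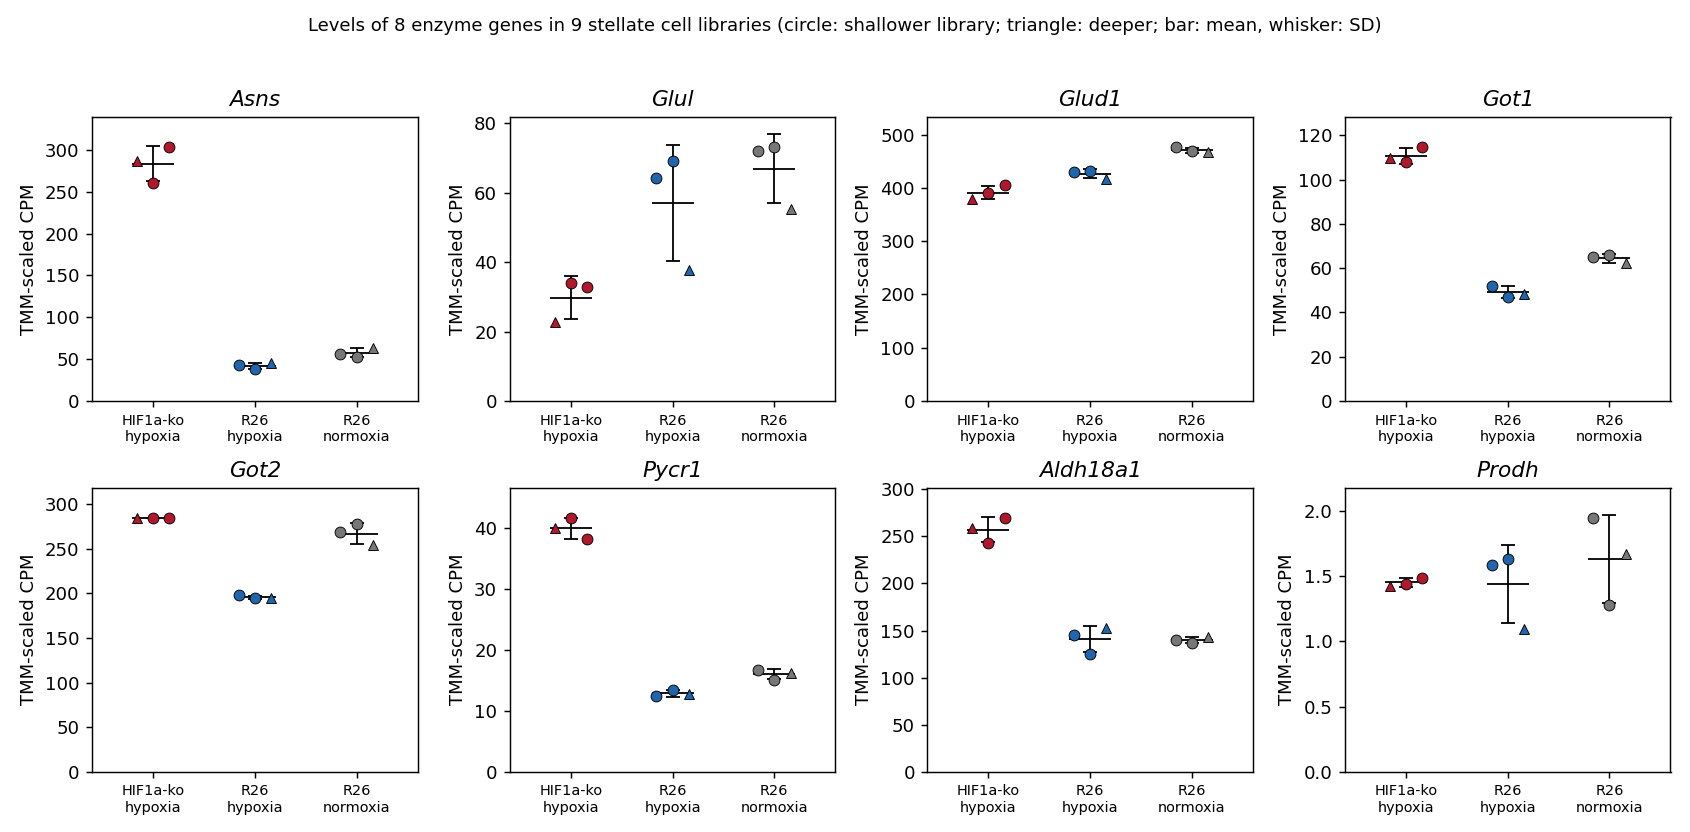
TMM-scaled CPM (vertical axis) of the 8 genes in each library, by group; circles are the shallower and triangles the deeper libraries, bars the means and whiskers the SD of 3 libraries. Asns, Got1, Pycr1, Aldh18a1 and, narrowly, Got2 stand higher in the 3 HIF1a-ko hypoxia libraries than in the other 6. Glul is lowest in the deeper library of each group.

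In HIF1a-ko hypoxia over R26 hypoxia, 5 of the 8 genes rose (Asns, Pycr1, Got1, Aldh18a1 and Got2), 2 fell (Glul and Glud1) and Prodh did not pass the test, at an adjusted p under 0.05 by edgeR. Of all 18211 genes tested, 45.8% changed in this comparison, 22% rising and 23.8% falling. The median log2 fold change was 0.70 over the 8 genes and -0.02 over all genes. In bulk RNA, fewer cells of a type and less RNA per cell cannot be told apart. In R26 hypoxia over R26 normoxia, none of the 8 rose, 5 fell (Asns, Got2, Got1, Pycr1 and Glud1) and 3 did not pass. Here 25.2% of all genes changed, 12.8% rising and 12.4% falling, and the medians were -0.27 over the 8 genes and -0.01 over all genes. With the replicate number as a block the count over all genes was 7259 in place of 4591, or 41.7% of the 17387 genes tested in that fit, and 6 of the 8 genes were called. In HIF1a-ko hypoxia over R26 normoxia 4 rose (Asns, Pycr1, Aldh18a1 and Got1), 2 fell (Glul and Glud1) and 2 did not pass, against 41.4% of all genes changed, 19.5% rising and 21.9% falling. The 3 comparisons share groups pairwise, so their values are not independent of each other. In the 6 shallower libraries alone the 3 counts of called members were 6, 4 and 6 in the order given here, against 51.3%, 30% and 46.1% of the 18159 genes tested in that fit, and the 2 counts that differ from those above lack Glud1.

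**Figure D2:**
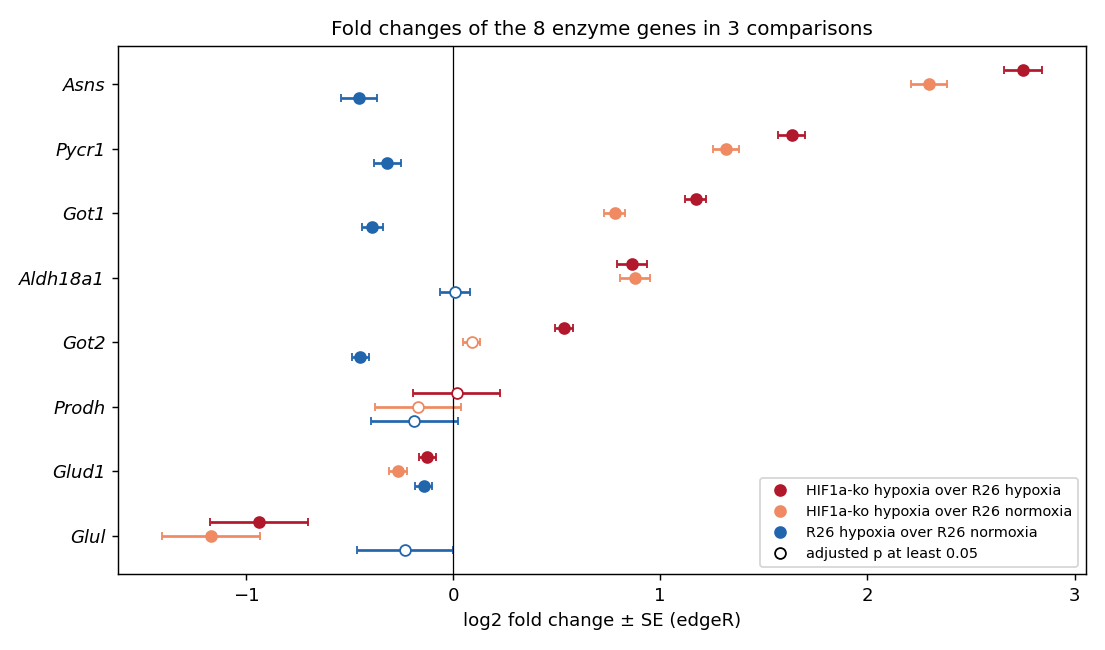
Log2 fold change with its SE from edgeR (horizontal axis) for the 8 genes in 3 comparisons; filled points have an adjusted p under 0.05. Asns reached 2.75 in HIF1a-ko hypoxia over R26 hypoxia and -0.45 in R26 hypoxia over R26 normoxia, while Glul lay at -0.94 and -0.23.

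Of the genes for asparagine and aspartate, Asns (ENSMUSG00000029752, chromosome 6, 7675169 to 7693254, minus strand, GRCm38 with GENCODE M21) had the largest fold of the 8. Its level was 287.1, 260.8 and 303.0 CPM in HIF1a-ko hypoxia, 43.1, 38.3 and 45.1 CPM in R26 hypoxia and 56.7, 53.1 and 63.2 CPM in R26 normoxia. No groups overlapped, with R26 hypoxia lowest and HIF1a-ko hypoxia highest. The means were 283.7 ± 21.3 CPM in HIF1a-ko hypoxia, 42.1 ± 3.49 CPM in R26 hypoxia and 57.7 ± 5.11 CPM in R26 normoxia (SD, n = 3 each). Asns rose 6.73-fold in HIF1a-ko hypoxia over R26 hypoxia (log2 fold change 2.75 ± 0.09 SE, adjusted p = 5.97e-08), which is percentile 99.5 of the tested genes. It fell in R26 hypoxia over R26 normoxia (-0.45 ± 0.09, adjusted p = 0.00471). Against R26 normoxia, HIF1a-ko hypoxia was 4.91-fold higher (2.30 ± 0.09, adjusted p = 2.47e-07).

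Got1 (ENSMUSG00000025190, chromosome 19, 43499752 to 43524605, minus strand) encodes the cytosolic enzyme. It had 109.5, 107.9 and 114.5 CPM in HIF1a-ko hypoxia, 52.2, 47.1 and 48.2 CPM in R26 hypoxia and 65.0, 66.1 and 62.3 CPM in R26 normoxia. The order of the groups was the same as for Asns, again without overlap. Got1 rose 2.25-fold in HIF1a-ko hypoxia over R26 hypoxia (1.17 ± 0.05, adjusted p = 1.97e-07). It fell in R26 hypoxia over R26 normoxia (-0.39 ± 0.05, adjusted p = 0.00056) and rose in HIF1a-ko hypoxia over R26 normoxia (0.78 ± 0.05, adjusted p = 2.61e-06).

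Got2 (ENSMUSG00000031672, chromosome 8, 95864134 to 95888547, minus strand) encodes the mitochondrial enzyme. It had 283.9, 284.1 and 284.3 CPM in HIF1a-ko hypoxia, 197.9, 194.7 and 194.8 CPM in R26 hypoxia and 268.8, 277.7 and 254.6 CPM in R26 normoxia. The HIF1a-ko hypoxia libraries lay close above those of R26 normoxia, and the R26 hypoxia libraries well below all others. Got2 rose 1.45-fold in HIF1a-ko hypoxia over R26 hypoxia (0.54 ± 0.04, adjusted p = 7.79e-06) and fell in R26 hypoxia over R26 normoxia (-0.45 ± 0.04, adjusted p = 0.000115). HIF1a-ko hypoxia over R26 normoxia did not pass with edgeR (0.09 ± 0.04, adjusted p = 0.127), and it passed with DESeq2 (0.11, adjusted p = 0.0186). Of the 50-base stretches of the Got2 transcripts, 25.6% also occur in Gm10874, Got2-ps1 or Gm45760, and Gm45760 overlaps Got2 on the other strand, so the counts of Got2 are uncertain to that extent.

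To compare genes, levels were divided by the summed length of all exons annotated for a gene. That length may differ from the length of the transcripts present, and the size of a ratio depends on it. The comparison of a ratio between groups does not. The ratio of Got2 to Got1 was 1.36, 1.39 and 1.31 in HIF1a-ko hypoxia, 2.00, 2.17 and 2.13 in R26 hypoxia and 2.18, 2.21 and 2.15 in R26 normoxia. The 3 HIF1a-ko hypoxia libraries were below the other 6, while the R26 groups overlapped. A two-sided exact permutation test on the log ratios gave p = 0.1 for HIF1a-ko hypoxia against R26 hypoxia, the smallest p that 3 against 3 allows, and p = 0.2 for R26 hypoxia against R26 normoxia. Over 24 tests of 8 ratios in 3 comparisons, of which 5 ratios are given here, a Benjamini-Hochberg adjustment turns each exact permutation p of 0.1 into 0.133. The ratio of Asns to Asrgl1, an asparaginase that hydrolyses asparagine, was 8.80, 7.17 and 8.28 in HIF1a-ko hypoxia, 1.33, 1.23 and 1.46 in R26 hypoxia and 1.69, 1.68 and 2.15 in R26 normoxia. No groups overlapped, with an exact permutation p = 0.1 for each pair of groups. Asrgl1 was chosen after its values were seen and did not pass in HIF1a-ko hypoxia over R26 hypoxia (0.16 ± 0.06, adjusted p = 0.0634). It passed there in 6 of 16 alternatives, and R26 hypoxia over R26 normoxia gave -0.01 ± 0.06 (adjusted p = 0.971). This ratio therefore mostly repeats the separation of Asns itself and is not a further test of it. Asns over Nars, the ligase that loads asparagine onto its tRNA, stood at 0.846, 0.725 and 0.788 in HIF1a-ko hypoxia, 0.276, 0.286 and 0.320 in R26 hypoxia and 0.288, 0.269 and 0.360 in R26 normoxia. Here the R26 groups overlapped, and the exact permutation p was 0.8 between them and 0.1 between HIF1a-ko hypoxia and R26 hypoxia.

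Of the proline genes, Pycr1 (ENSMUSG00000025140, chromosome 11, 120635712 to 120643769, minus strand) encodes the mitochondrial reductase of the last step. Its level was 40.0, 41.6 and 38.2 CPM in HIF1a-ko hypoxia, 12.4, 13.5 and 12.8 CPM in R26 hypoxia and 16.7, 15.1 and 16.3 CPM in R26 normoxia. The groups did not overlap. Pycr1 rose 3.10-fold in HIF1a-ko hypoxia over R26 hypoxia (1.63 ± 0.06, adjusted p = 1.36e-07) and 2.49-fold in HIF1a-ko hypoxia over R26 normoxia (1.32 ± 0.06, adjusted p = 5.02e-07). It fell in R26 hypoxia over R26 normoxia (-0.32 ± 0.06, adjusted p = 0.00593).

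Pycrl (Pycr3) encodes a cytosolic enzyme that catalyses the same reduction. It averaged 26.5 CPM in HIF1a-ko hypoxia, 24.9 CPM in R26 hypoxia and 27.4 CPM in R26 normoxia. Its log2 fold change in HIF1a-ko hypoxia over R26 hypoxia was 0.09 ± 0.07 (adjusted p = 0.317), and in R26 hypoxia over R26 normoxia it was -0.14 ± 0.07 (adjusted p = 0.177).

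Aldh18a1 (ENSMUSG00000025007, chromosome 19, 40550257 to 40588463, minus strand) encodes the enzyme that commits glutamate to proline or ornithine. It had 258.7, 243.0 and 269.4 CPM in HIF1a-ko hypoxia, 145.4, 125.4 and 152.3 CPM in R26 hypoxia and 139.8, 137.1 and 142.9 CPM in R26 normoxia. The R26 groups overlapped and the HIF1a-ko hypoxia libraries stood above both. Aldh18a1 rose 1.82-fold in HIF1a-ko hypoxia over R26 hypoxia (0.87 ± 0.07, adjusted p = 1.06e-05) and also rose over R26 normoxia (0.88 ± 0.07, adjusted p = 1.26e-05). R26 hypoxia over R26 normoxia gave 0.01 ± 0.07 (adjusted p = 0.942). Oat, the aminotransferase that feeds ornithine into the same intermediate, is a second source of the precursor. The ratio of Aldh18a1 to Oat per kilobase was 1.26, 1.23 and 1.20 in HIF1a-ko hypoxia, 0.619, 0.550 and 0.594 in R26 hypoxia and 0.645, 0.621 and 0.624 in R26 normoxia, with an exact permutation p of 0.1 for each pair of groups.

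Prodh (ENSMUSG00000003526, chromosome 16, 18060357 to 18090203, minus strand), the entry to proline breakdown, was the lowest of the 8 in every group. It had 1.43, 1.44 and 1.49 CPM in HIF1a-ko hypoxia, 1.59, 1.63 and 1.10 CPM in R26 hypoxia and 1.94, 1.28 and 1.67 CPM in R26 normoxia. The groups overlapped, and counts of 55 to 148 a library limit the precision. No comparison passed the test, with 0.02 ± 0.21 in HIF1a-ko hypoxia over R26 hypoxia (adjusted p = 0.958) and -0.19 ± 0.21 in R26 hypoxia over R26 normoxia (adjusted p = 0.599). The ratio of Pycr1 to Prodh per kilobase was 55.6, 57.3 and 51.0 in HIF1a-ko hypoxia, 15.4, 16.4 and 23.1 in R26 hypoxia and 17.1, 23.4 and 19.3 in R26 normoxia, higher in HIF1a-ko hypoxia than in the other 6 libraries (exact permutation p = 0.1 against either R26 group).

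**Figure D3:**
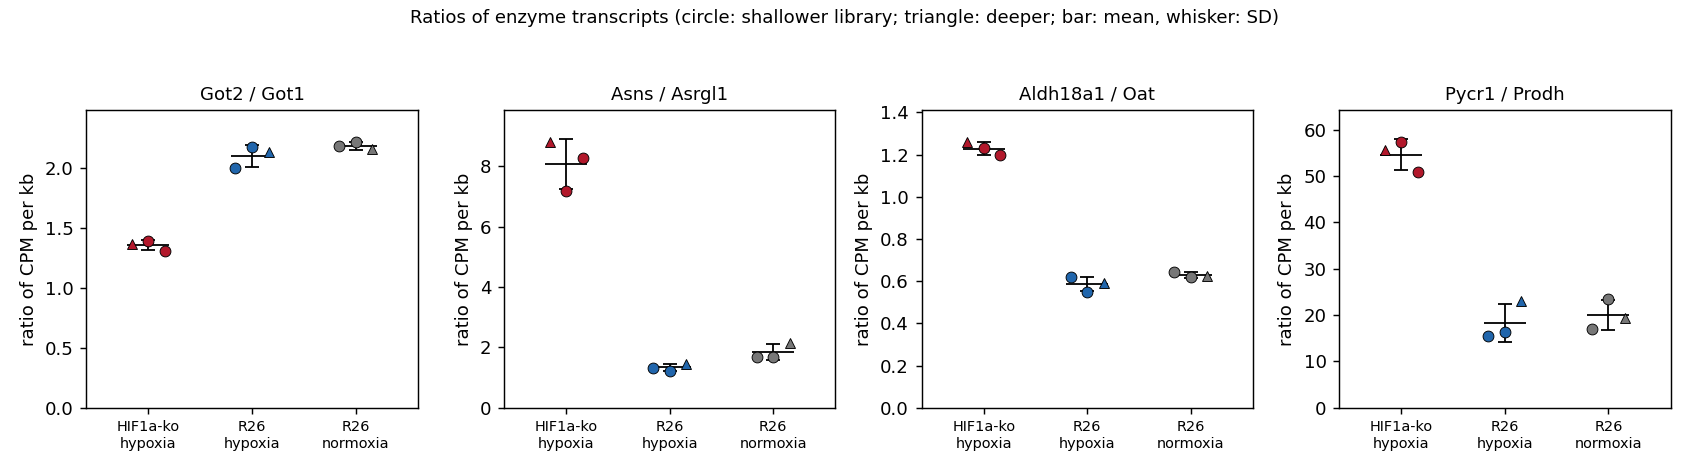
Ratios of CPM per kilobase of exon (vertical axis) for Got2 over Got1, Asns over Asrgl1, Aldh18a1 over Oat and Pycr1 over Prodh, by library and group; circles are the shallower and triangles the deeper libraries, bars the means and whiskers the SD of 3 libraries. Got2 over Got1 lies at 1.31 to 1.39 in HIF1a-ko hypoxia and at 2.00 to 2.21 in the R26 libraries.

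Glul (ENSMUSG00000026473, chromosome 1, 153899944 to 153909723, plus strand) had a library that stood apart in each group. It had 22.6, 34.0 and 32.8 CPM in HIF1a-ko hypoxia, 64.3, 69.1 and 37.8 CPM in R26 hypoxia and 72.2, 73.1 and 55.5 CPM in R26 normoxia. The deeper library was the lowest of its group each time, and its markers of other cell types were also the lowest, as given above; the part of either in the level of Glul was not tested. Glul fell 1.91-fold in HIF1a-ko hypoxia over R26 hypoxia (-0.94 ± 0.24, adjusted p = 0.00923), without overlap between these groups. Over the 16 alternatives this comparison gave adjusted p from 7.62e-09 in the 6 shallower libraries alone (-0.99) to 0.0531 with the replicate number as a block (-0.92), and the block was the 1 alternative that lost the call; the numbers did not pair these groups. Glul also fell in HIF1a-ko hypoxia over R26 normoxia (-1.17 ± 0.24, adjusted p = 0.0033). R26 hypoxia over R26 normoxia did not pass (-0.23 ± 0.23, adjusted p = 0.547). It passed in 2 of the 16 alternatives, with the replicate number as a block (-0.25, adjusted p = 0.0368) and with depth class as a term (-0.27, adjusted p = 0.0103). In the 6 shallower libraries it did not (-0.11, adjusted p = 0.198), and without R26 hypoxia 3 the value was -0.00. Of the 50-base stretches of its transcripts, 12.6% are shared with Glns-ps1, AC134576.3 or Teddm2, and Mir8114 and Teddm2 overlap the gene.

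Glud1 (ENSMUSG00000021794, chromosome 14, 34310727 to 34345265, plus strand) differed little between groups in size. It had 379.4, 389.6 and 404.6 CPM in HIF1a-ko hypoxia, 430.2, 432.6 and 416.4 CPM in R26 hypoxia and 476.1, 468.5 and 467.2 CPM in R26 normoxia. The 3 groups did not overlap, with HIF1a-ko hypoxia lowest. The fold change in HIF1a-ko hypoxia over R26 hypoxia was -0.12 ± 0.04 (adjusted p = 0.0364), and that call was lost in 13 of 16 alternatives, with adjusted p up to 0.231. The value in R26 hypoxia over R26 normoxia was -0.14 ± 0.04 (adjusted p = 0.0352), and the call was lost in 12 of 16, including each fit that left out a library. The fall in HIF1a-ko hypoxia over R26 normoxia (-0.27 ± 0.04, adjusted p = 0.000775) was called in all 16. Copies named Glud-ps and Gm43444 share 6.49% of its 50-base stretches.

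Levels of different genes are set side by side here per kilobase of all annotated exons. With another length for a gene, close positions could change. In HIF1a-ko hypoxia the order of mean levels was Asns at 103.7, Glud1 at 92.9, Aldh18a1 at 63.1, Got2 at 58.9, Got1 at 43.6, Pycr1 at 10.2, Glul at 8.98 and Prodh at 0.186 CPM per kilobase. Asns and Glud1 overlapped between libraries there, as did Pycr1 and Glul. In R26 hypoxia the order was Glud1 at 101.3, Got2 at 40.6, Aldh18a1 at 34.6, Got1 at 19.4, Glul at 17.2, Asns at 15.4, Pycr1 at 3.27 and Prodh at 0.185 CPM per kilobase, where Glul overlapped with both Got1 and Asns. R26 normoxia had Glud1 at 111.8, Got2 at 55.4, Aldh18a1 at 34.4, Got1 at 25.4, Asns at 21.1, Glul at 20.1, Pycr1 at 4.07 and Prodh at 0.209 CPM per kilobase, with overlap of Asns and Glul. On this scale Asns stood sixth in R26 hypoxia and shared the top with Glud1 in HIF1a-ko hypoxia.

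Among the other genes of glutamine and glutamate turnover, 7 of 11 tested rose in HIF1a-ko hypoxia over R26 hypoxia, 2 fell and 2 did not pass (median log2 fold change 0.38). The counts of this and the later lists stand beside the shares of all genes tested. Those were 22% rising and 23.8% falling in this comparison. In R26 hypoxia over R26 normoxia they were 12.8% rising and 12.4% falling, with 41.7% changed in the fit with the replicate block. Cad, which starts pyrimidine synthesis from glutamine, averaged 79.1 CPM in HIF1a-ko hypoxia and 42.2 CPM in R26 hypoxia (0.90 ± 0.07, adjusted p = 4.43e-06). Gfpt2, a glutamine user of the hexosamine pathway, fell (-1.35 ± 0.09, adjusted p = 2.75e-06), at 9.44 CPM in HIF1a-ko hypoxia and 24.0 CPM in R26 hypoxia. Of the same 11 genes in R26 hypoxia over R26 normoxia, 1 rose, 3 fell and 7 did not pass (median 0.01). With Asns, Glul and Glud1 the list had 6 changed genes there, and 10 with the replicate block. Gls2, the liver-type glutaminase, also rose in HIF1a-ko hypoxia over R26 hypoxia (0.71 ± 0.18, adjusted p = 0.0089). The same was seen for Ppat (0.74 ± 0.08, adjusted p = 4.98e-05), Ctps (0.69 ± 0.08, adjusted p = 9.58e-05) and Gmps (0.43 ± 0.05, adjusted p = 0.000113), which use glutamine in nucleotide synthesis. Of 10 other glutamate-linked transaminases, 4 rose, 4 fell and 2 did not pass in HIF1a-ko hypoxia over R26 hypoxia (median 0.17). Psat1, the serine pathway aminotransferase, averaged 587.9 CPM in HIF1a-ko hypoxia and 119.3 CPM in R26 hypoxia (2.30 ± 0.11, adjusted p = 2.94e-07). Bcat1, the cytosolic branched-chain aminotransferase, rose as well (2.39 ± 0.16, adjusted p = 2.09e-06), while its mitochondrial counterpart Bcat2 fell (-0.45 ± 0.06, adjusted p = 0.000164). Gpt2, the mitochondrial alanine aminotransferase, rose (1.41 ± 0.08, adjusted p = 8.45e-07). Kyat3 rose by less (0.42 ± 0.13, adjusted p = 0.0231), a call lost in 6 of 16 alternatives. In R26 hypoxia over R26 normoxia Abat, the GABA transaminase, was the 1 transaminase outside Got1 and Got2 that changed (-1.36 ± 0.17, adjusted p = 0.000504), at 3.39 to 4.89 CPM in R26 hypoxia and 9.84 to 10.7 CPM in R26 normoxia. With the replicate block Gpt, Gpt2 and Oat were called too, which makes 6 changed genes of this list in place of 3.

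Of 11 other genes of aspartate and asparagine metabolism, 5 rose, 2 fell and 4 did not pass in HIF1a-ko hypoxia over R26 hypoxia (median 0.63), and 2 rose, 5 fell and 4 did not pass in R26 hypoxia over R26 normoxia (median -0.40). Cad is counted both here and in glutamine and glutamate turnover, so the lists are not separate sets of genes. Nars averaged 575.2 CPM in HIF1a-ko hypoxia, 228.6 CPM in R26 hypoxia and 302.3 CPM in R26 normoxia. It rose in HIF1a-ko hypoxia over R26 hypoxia (1.33 ± 0.08, adjusted p = 9.45e-07) and fell in R26 hypoxia over R26 normoxia (-0.40 ± 0.07, adjusted p = 0.00415). The pair that passes aspartate into arginine went opposite ways in HIF1a-ko hypoxia over R26 hypoxia: Ass1 rose (0.76 ± 0.08, adjusted p = 6.29e-05) and Asl fell (-0.88 ± 0.05, adjusted p = 1.08e-06). Adsl, of purine synthesis, averaged 59.3 CPM in HIF1a-ko hypoxia, 38.3 CPM in R26 hypoxia and 54.4 CPM in R26 normoxia. It rose in HIF1a-ko hypoxia over R26 hypoxia (0.63 ± 0.05, adjusted p = 1.25e-05) and fell in R26 hypoxia over R26 normoxia (-0.51 ± 0.05, adjusted p = 0.000195). Adssl1, also of purine synthesis, fell in HIF1a-ko hypoxia over R26 hypoxia (-0.80 ± 0.15, adjusted p = 0.00175). Ass1 is uncertain, since 38.6% of its 50-base stretches occur in Gm5424. All 5 other genes of the malate-aspartate shuttle passed in HIF1a-ko hypoxia over R26 hypoxia, 4 rising and 1 falling, against 45.8% of all genes tested. Mdh2 (0.65 ± 0.05, adjusted p = 7.99e-06) and Mdh1 (0.44 ± 0.05, adjusted p = 6.29e-05), the malate dehydrogenases, rose, and Slc25a11, the oxoglutarate carrier, fell (-0.40 ± 0.05, adjusted p = 0.000206). The aspartate and glutamate carriers Slc25a12 (0.21 ± 0.04, adjusted p = 0.00168) and Slc25a13 (0.19 ± 0.06, adjusted p = 0.0191) rose, the call of Slc25a13 being lost in 3 of 16 alternatives. Of the same 5 genes in R26 hypoxia over R26 normoxia, Mdh2 fell (-0.28 ± 0.05, adjusted p = 0.00383) and 4 did not pass, and with the replicate block Slc25a13 was called too (-0.14, adjusted p = 0.0471).

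Of the other 8 tested genes of proline and ornithine metabolism, 1 rose, 1 fell and 6 did not pass in HIF1a-ko hypoxia over R26 hypoxia, with a median of -0.00. The riser was Odc1, which turns ornithine into putrescine, at 77.7 CPM in HIF1a-ko hypoxia and 33.2 CPM in R26 hypoxia (1.23 ± 0.04, adjusted p = 5.88e-08), with 24.3% of its 50-base stretches shared with other genes. The faller was Oat (-0.20 ± 0.06, adjusted p = 0.0279), a call lost in 5 of 16 alternatives, and Oat is also counted among the transaminases. In R26 hypoxia over R26 normoxia Odc1 (-0.66 ± 0.04, adjusted p = 7.51e-06) and Pepd, which frees proline from dipeptides (-0.44 ± 0.06, adjusted p = 0.000682) were among the 3 that fell, and the other 5 did not pass, of which Oat was called with the replicate block (0.13, adjusted p = 0.0164).

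Of 15 tested transporters for glutamine, glutamate and proline, 8 rose, 3 fell and 4 did not pass in HIF1a-ko hypoxia over R26 hypoxia (median 0.25), and 2 rose, 7 fell and 6 did not pass in R26 hypoxia over R26 normoxia (median -0.24). Slc7a5, which exchanges glutamine for large neutral amino acids, averaged 270.1 CPM in HIF1a-ko hypoxia, 30.6 CPM in R26 hypoxia and 79.8 CPM in R26 normoxia. It rose in HIF1a-ko hypoxia over R26 hypoxia (3.14 ± 0.10, adjusted p = 5.88e-08) and fell in R26 hypoxia over R26 normoxia (-1.38 ± 0.09, adjusted p = 1.68e-05). Slc7a11, the cystine and glutamate exchanger, averaged 27.3 CPM in HIF1a-ko hypoxia, 2.33 CPM in R26 hypoxia and 6.13 CPM in R26 normoxia (3.54 ± 0.14 over R26 hypoxia, adjusted p = 1.41e-07). Slc1a4 (1.59 ± 0.09, adjusted p = 7.18e-07), Slc38a1 (1.31 ± 0.06, adjusted p = 3.28e-07) and Slc3a2, the partner chain of Slc7a5 and Slc7a11 (1.02 ± 0.05, adjusted p = 4.65e-07), rose in HIF1a-ko hypoxia over R26 hypoxia. Slc1a3, a glutamate importer, rose in R26 hypoxia over R26 normoxia (0.92 ± 0.11, adjusted p = 0.000446). Slc38a2, a neutral amino acid importer, went the other way, falling in HIF1a-ko hypoxia over R26 hypoxia (-0.43 ± 0.11, adjusted p = 0.00908) and rising in R26 hypoxia over R26 normoxia (0.60 ± 0.11, adjusted p = 0.00357). It was named after its values were seen, as was Slc36a4, the 1 further transporter called in R26 hypoxia over R26 normoxia with the replicate block (0.17, adjusted p = 0.0161).

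Of 12 regulators of the amino acid response, 10 rose, 1 fell and 1 did not pass in HIF1a-ko hypoxia over R26 hypoxia (median 1.05), against 1 rising, 2 falling and 9 not passing in R26 hypoxia over R26 normoxia (median -0.01). Of all genes tested, 45.8% changed in the first of these comparisons and 25.2% in the second, which is near the share of the regulators there. Atf4 averaged 393.0 CPM in HIF1a-ko hypoxia, 163.9 CPM in R26 hypoxia and 181.7 CPM in R26 normoxia. It rose in HIF1a-ko hypoxia over R26 hypoxia (1.26 ± 0.08, adjusted p = 1.34e-06) and did not pass in R26 hypoxia over R26 normoxia (-0.15 ± 0.08, adjusted p = 0.196), where the replicate block gave -0.13 (adjusted p = 0.0252) and 6 changed regulators in place of 3. Trib3, a pseudokinase induced by ATF4, averaged 61.7 CPM in HIF1a-ko hypoxia and 8.80 CPM in R26 hypoxia (2.80 ± 0.11, adjusted p = 1.59e-07). Chac1, which degrades glutathione, averaged 19.4 CPM in HIF1a-ko hypoxia and 2.84 CPM in R26 hypoxia (2.77 ± 0.19, adjusted p = 2.69e-06). Atf5 (1.16 ± 0.06, adjusted p = 3.73e-07) and the stress-induced Nupr1 (1.07 ± 0.20, adjusted p = 0.0018) rose too. Atf3 rose at 4.03 to 4.84 CPM in HIF1a-ko hypoxia and 0.756 to 2.57 CPM in R26 hypoxia (1.25 ± 0.39, adjusted p = 0.0263), a call lost in 3 of 16 alternatives. The gene that fell was Cebpb, a C/EBP factor (-0.88 ± 0.21, adjusted p = 0.00722), named after its values were seen. Cebpg, another C/EBP factor of this list, rose (0.83) and was called in all 16 alternatives. Ddit3, a further member of that family, rose as well, at 0.93 to 1.04 over the 16 alternatives. It too was named after its values were seen. These lists were chosen with earlier results of these data known, so their direction is a description.

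**Figure D4:**
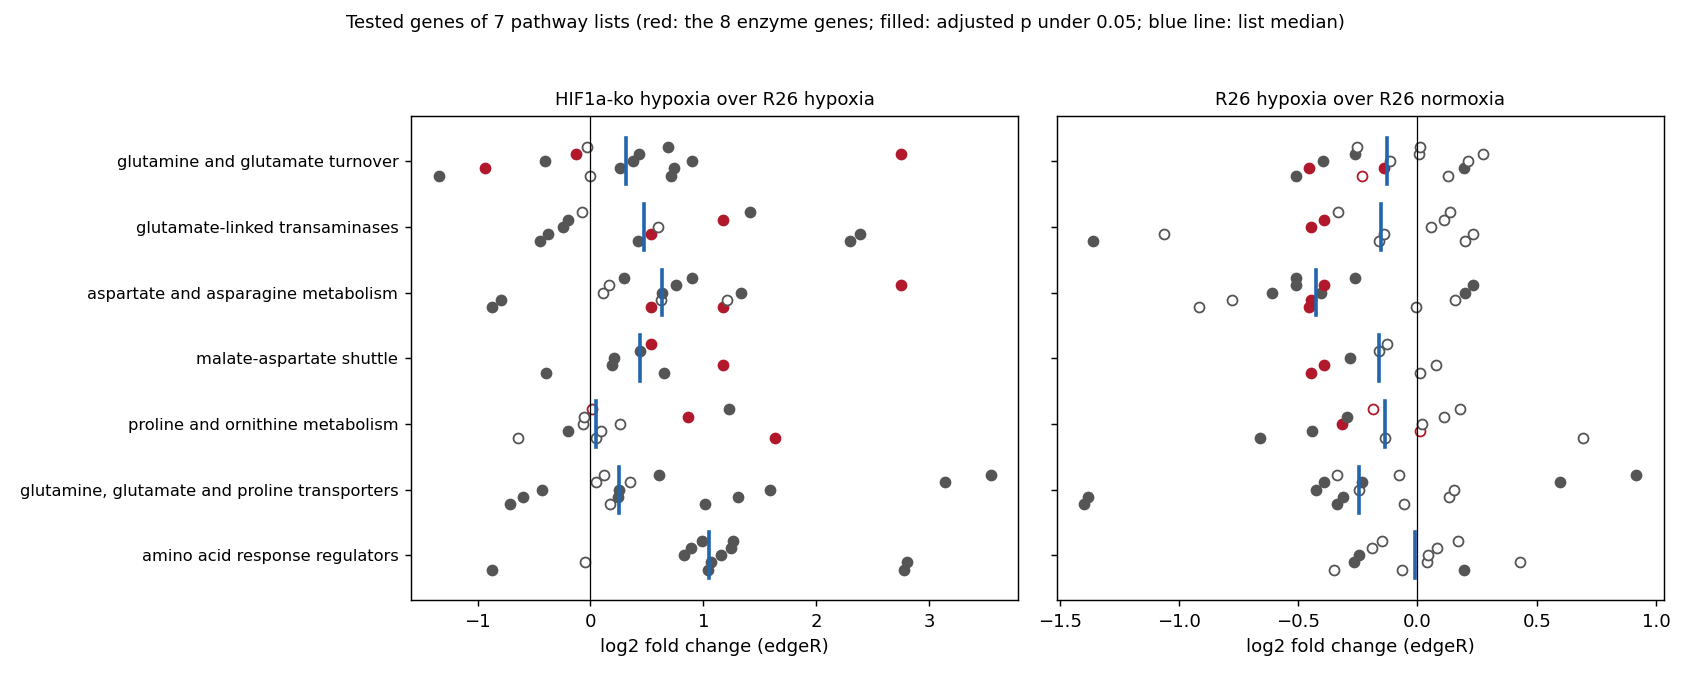
Log2 fold change from edgeR (horizontal axis) of each tested gene in 7 pathway lists, for HIF1a-ko hypoxia over R26 hypoxia and for R26 hypoxia over R26 normoxia; red marks the 8 enzyme genes, filled points an adjusted p under 0.05, and blue lines the list medians. In HIF1a-ko hypoxia over R26 hypoxia the regulators of the amino acid response have a median of 1.05, and the proline and ornithine list one of 0.05.

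The genes most like each member were sought by the root mean square difference of log2 CPM, centred per gene, over the 9 libraries, among the other genes whose log2 CPM averaged 3 or more (9954 for Prodh, which is itself below that level, and 9953 for each of the other 7). Among the nearest to Asns were Uhrf1 at 0.076 and Pclaf at 0.087. Nearest to Got1 were Pold2 at 0.049, Hspd1 at 0.055 and Txnrd1 at 0.063, and nearest to Pycr1 were Gins2 at 0.073, Cyb5r1 at 0.088 and Gja1 at 0.106. For Aldh18a1 they were Slbp at 0.051, Cebpg at 0.052 and Col8a1 at 0.067. Among the nearest to Glul were Ace at 0.199 and Stard10 at 0.1996. Ebna1bp2 at 0.031, Pcyt1a and Adi1, each at 0.045, were nearest to Got2. Abraxas2 at 0.036, Anxa5 at 0.037 and Kctd10 at 0.040 were nearest to Glud1. For Prodh the distances were 0.149 to 5430416N02Rik and 0.162 to Nol7 and Dnlz, over counts that are low. Among the members themselves the closest pair was Got1 and Aldh18a1 at 0.184.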

How the data were processed

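The authors deposited raw, whole-number read counts for Ensembl genes. The submitters' processing notes name GRCm38 as the build and featureCounts, STAR, Trimmomatic, DESeq2 and bcl2fastq 2.17 as tools. How strand and multiply matching reads were treated, and the annotation release, is not given in the sources used here, so reads of near-identical copies or overlapping genes could be lost or misassigned. All 9 columns matched a sample by name, and of 49315 identifiers 49056 had a symbol in GENCODE M21. Total counts ran from 43837809 to 107840223. No libraries of a group agreed within sampling noise (chi-square per degree of freedom 6.18 to 63.0).

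The test was that of edgeR 4.0.16 on the counts (R 4.3.3, TMM, filterByExpr, quasi-likelihood test, two-sided, all 9 libraries, group as the only term) with Benjamini-Hochberg adjustment over 18211 genes. Called or changed means an adjusted p under 0.05. Every adjusted p comes from this fit unless another is named. The code was run on simulated counts with the same spread for every gene and no difference in expression between depth classes. That run does not measure the error rate of the test in these libraries. Ratios used CPM per kilobase of GENCODE M21 exon and exact permutation tests (scipy 1.17.1), 24 tests of 8 ratios in 3 comparisons. Copies were found from shared 50-base stretches of transcripts.

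The 8 genes and the lists were chosen with earlier results of these data known. The naming rule took the 8 genes, their paralogs or opposing enzyme, and Hif1a. It also took up to 6 changed genes of each list by absolute log2 fold change, and the 3 genes most like each member. Asrgl1, Slc38a2, Slc36a4, Cebpb, Ddit3, Gpt and the markers Cela1, Cpb1, Krt19 and Muc1 lie outside the rule and were chosen after their values were seen. Results for 4 of the genes the rule names are not reported here. Alternatives were RLE factors, DESeq2 1.42.0, no filter on low counts, the 2 groups compared alone, a replicate block and each library left out. A term for depth class and the 6 shallower libraries alone were added after seeing the data.

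Replicate numbers in the labels are shared between groups. Deviations from the group mean of same-numbered libraries correlated at 0.772, 0.768 and 0.936 between R26 hypoxia and R26 normoxia. These numbers were therefore taken as pairs in the replicate block alone. The main fit, with group as its only term, used no pairs. The differently numbered shallower libraries correlated at 0.749 and 0.626, so that beyond the depth class the numbers separate the libraries little. Deviations from a group mean depend on each other, so these correlations cannot show pairing apart from the depth class. This pairing comes from the data, since the labels do not say what the number stands for, and number 3 is the deeper library in both groups. Between HIF1a-ko hypoxia and either R26 group the numbers did not pair. The deeper library HIF1a-ko hypoxia 1 correlated at 0.851 with R26 hypoxia 3 and at 0.900 with R26 normoxia 3. The shallower HIF1a-ko hypoxia libraries correlated at 0.542 to 0.743 with the shallower R26 libraries. Deviations thus followed the depth class in all 3 groups, under other numbers.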

Additional observations from a re-analysis of the deposited data

How the results depend on the processing

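In R26 hypoxia over R26 normoxia, 4591 genes changed. With the replicate block 7259 changed (3843 rose, 3416 fell), and with depth class as a term 6959 (3405 rose, 3554 fell). In that comparison 4 of the 7 lists, those of glutamine turnover, transaminases, the shuttle and the regulators, moved by over 1.5 times. Changed genes of glutamine turnover were 6, and 10 with the block or the depth term. For transaminases they were 3, 6 with the block and 5 with the depth term. For the shuttle they were 3, and 5 with the depth term or without R26 hypoxia 3. For the regulators they were 3, 6 with the block or the depth term, 5 in the shallower libraries and 1 without R26 normoxia 1, 2 or 3. Leaving out 1 library in turn gave 3287 to 4373 changed genes and 4 called members. In HIF1a-ko hypoxia over R26 hypoxia those fits called 7195 to 8400 genes and 6 or 7 members, and in HIF1a-ko hypoxia over R26 normoxia 6309 to 7995 genes and 6 members. The calls of Asns, Got1, Pycr1, Aldh18a1 and Prodh held in every comparison and alternative, and no member changed direction while called. Those of Glud1 and Glul are given with their values, and Got2 over R26 normoxia was called by DESeq2 alone. Between HIF1a-ko hypoxia and R26 hypoxia same-numbered libraries correlated at -0.759, 0.736 and -0.699, so the numbers did not pair them. The replicate block there gave 6761 genes and 5 members, with Glul at adjusted p = 0.0531 and Glud1 at 0.16. In HIF1a-ko hypoxia over R26 normoxia the correlations were -0.808, 0.743 and -0.770, and the block gave 6240 genes and 6 members. For these block fits and the fits that left out a library, the number of genes tested is not given. Their counts of members therefore stand without a share of all genes. Between the R26 groups the block moved the call of Glul alone among the members. Scaling by RLE moved the median of all genes by at most 0.018 (log2). The counts of Prodh limit what could be detected for it. The cause of these movements was not tested.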
